A study of Mus musculus with 6 samples.

Results

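The guanylate-binding proteins examined here are the mouse genes Gbp2, Gbp3, Gbp4, Gbp5, Gbp6, Gbp7, Gbp8, Gbp9 and Gbp10, taken as a family by gene symbol and not by any measured value. Of these 9 genes, 7 had at least 1 transcript in the deposited expression values, and 6 of the 7 were abundant enough to be tested among 11593 genes of the series. Gbp6 and Gbp8 had no transcript among those listed, and the only listed transcript of Gbp9 stood at 0 in all 6 libraries.

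The libraries came from C2C12, an immortalized mouse myoblast line that fuses into myotubes when serum is lowered. Cells were grown in 10% fetal bovine serum, differentiated in 2% horse serum, and transfected with negative control siRNA (siNC, 3 libraries) or with siRNA against CNN3, the actin-binding protein calponin 3 (siCNN3, 3 libraries), a transfection that the study's methods describe as repeated for differentiating cells. Both groups were otherwise the same line under the same handling, the labels call the cells mouse myotube, and they name neither the siRNA sequence nor the time after transfection. Values are FPKM, fragments per kilobase of transcript scaled to library size, summed over the transcripts of a gene. No read numbers come with them, so the depth behind each value is unknown and no counting interval can be given. The labels do not say whether libraries of a group came from separate cultures, so the p-values measure the spread between these libraries, which may be technical.

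Guanylate-binding proteins are large GTPases of the dynamin superfamily and are among the most strongly induced genes in cells exposed to interferon. They bind GTP, assemble into multimers and coat bacteria or the vacuoles of intracellular parasites, which exposes the pathogen to further attack and to inflammasome sensors. Their induction runs from interferon receptors through JAK kinases to transcription factors that bind short promoter motifs called GAS and ISRE. In the mouse the genes lie in a pair of clusters, on chromosomes 3 and 5.

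The targeted gene, Cnn3, stood at 62.8, 61.4 and 62.8 FPKM in the siNC libraries and at 19.0, 39.2 and 25.6 FPKM in the siCNN3 libraries. The groups did not overlap, with siCNN3 replicate 2 the highest of the knockdown libraries. The log2 fold change was -1.19 ± 0.24 (SE, n = 3 per group), and its adjusted p in limma was 0.0669, which became 0.0477 without siCNN3 replicate 2. Desmin (Des), a muscle intermediate filament gene, was 113.0 to 125.1 FPKM in siNC and 84.3 to 103.2 FPKM in siCNN3, groups that did not overlap, with a log2 fold change of -0.36 that was not called (adjusted p = 0.196 in limma). Of 10 muscle markers, 9 could be tested, and 4 of them were called lower and 0 higher, where 0.336% of all genes tested were called lower. The summed level of the 10 was 180.8 to 220.5 FPKM in siNC and 113.8 to 129.1 FPKM in siCNN3. Mylpf, a fast myosin light chain gene, fell by 1.88 on the log2 scale (adjusted p = 0.0099 in limma), a call lost without siNC replicate 3 (0.0646) or siCNN3 replicate 2 (0.0522). Whether this lower muscle program has a part in the Gbp values was not tested.

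The family was low in siNC and higher in siCNN3. The 7 listed genes together summed to 6.43, 48.0 and 15.2 FPKM in the siNC libraries and to 410.4, 371.9 and 164.6 FPKM in the siCNN3 libraries, which is 0.0020% to 0.0137% and 0.0469% to 0.116% of all FPKM. Gbp2, Gbp5 and Gbp10 rose at an adjusted p below 0.05, and Gbp3, Gbp7 and Gbp4 did not pass that threshold. Across all genes, 200 of 11593 were called higher (1.73%) and 39 were called lower (0.336%), counts that became 199 and 93 with quantile normalization. All 6 tested members had their 3 siCNN3 libraries above their 3 siNC libraries, as did 13.8% of all tested genes. Of these 6, Gbp4 and Gbp10 passed the filter on low values only through siCNN3, so their direction was fixed by the filter. The median log2 fold change was 3.43 over the members tested and 0.03 over all genes tested. In RNA from a whole culture, more cells with Gbp transcripts and more transcript per cell cannot be told apart.

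**Figure D1:**
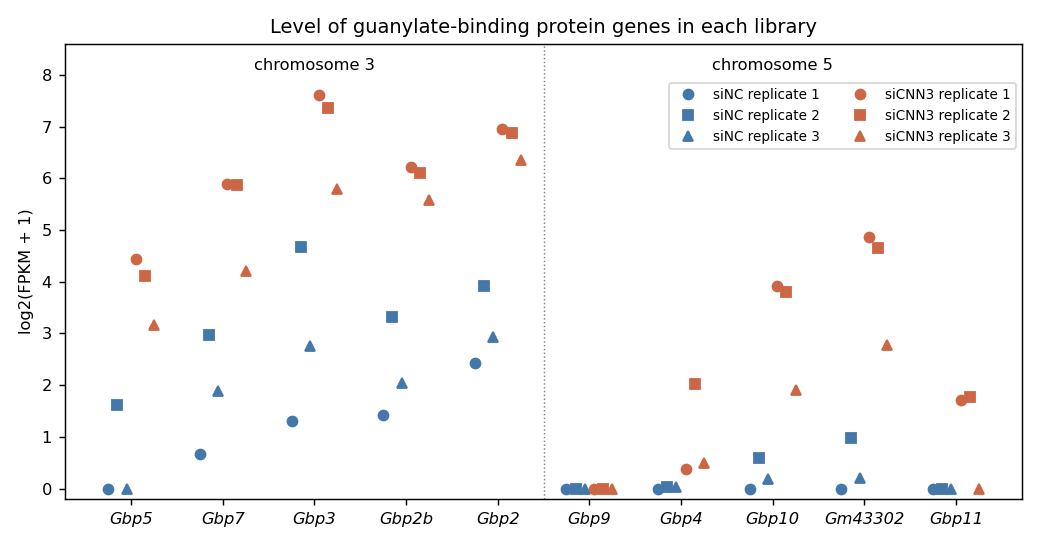
Level of each Gbp gene in each library, as log2(FPKM + 1) on the vertical axis, with siNC libraries in blue, siCNN3 libraries in red and replicates by symbol. For Gbp2, Gbp3, Gbp5, Gbp7 and Gbp10 every red point lies above every blue point, siNC replicate 2 is the highest blue point and siCNN3 replicate 3 is the lowest red point.

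Gbp2, a prenylated member that is directed to membranes and takes part in defence against Toxoplasma, occupies chr3:142620602-142638008 (GRCm38, plus strand). It measured 4.38, 14.2 and 6.62 FPKM in siNC and 122.8, 117.3 and 81.2 FPKM in siCNN3. Every siCNN3 library was several times any siNC library. The means were 8.38 ± 5.12 FPKM and 107.1 ± 22.6 FPKM (SD, n = 3 each), a ratio of 12.8, and the log2 fold change of 3.64 ± 0.38 (SE) had an adjusted p of 0.0099 in limma. The call was lost without siNC replicate 3 (adjusted p = 0.0646) or siCNN3 replicate 2 (adjusted p = 0.0522). It stood in the other leave-one-out fits.

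Gbp5, which promotes inflammasome assembly, lies at chr3:142493978-142522344. It was listed at 0, 2.06 and 0 FPKM in siNC, against 20.7, 16.3 and 8.01 FPKM in siCNN3. Only siNC replicate 2 had a value among the control libraries, and it was below every siCNN3 library. The log2 fold change was 3.37 ± 0.52 (SE) with an adjusted p of 0.0305 in limma. The call stood with siNC replicate 2 (0.0148) or siCNN3 replicate 3 (0.0204) left out, and was lost, with adjusted p between 0.0984 and 0.133, when any one of the other 4 libraries was. With a pseudocount of 0.1 its log2 fold change was 5.66 and its adjusted p 0.0745.

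Gbp3, a member without the prenylation signal, lies at chr3:142560026-142573209 and was the most abundant of the family in siCNN3 replicates 1 and 2. It measured 1.47, 24.4 and 5.73 FPKM in siNC against 194, 164.5 and 54.8 FPKM in siCNN3. Neither group was tight, since siNC replicate 2 was far above the other controls and siCNN3 replicate 3 far below its group. The means were 10.5 ± 12.2 and 137.8 ± 73.3 FPKM (SD, n = 3 each), and the log2 fold change of 4.02 ± 0.86 (SE) had an adjusted p of 0.0772 in limma. Without siNC replicate 2 the log2 fold change was 4.90 and the adjusted p 0.031.

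Gbp7, which also lacks the prenylation signal and has been tied to oxidative killing of bacteria, lies at chr3:142530342-142550149. Its values were 0.583, 6.83 and 2.68 FPKM in siNC and 58.5, 57.7 and 17.4 FPKM in siCNN3. The pattern over the libraries was that of Gbp3, with siCNN3 replicates 1 and 2 close together and replicate 3 well below them. The means of 3.37 ± 3.18 and 44.5 ± 23.5 FPKM (SD, n = 3 each) differed by a ratio of 13.2, and the log2 fold change of 3.49 ± 0.67 (SE) had an adjusted p of 0.0578 in limma. It passed the threshold without siNC replicate 2 (adjusted p = 0.0426) or without siCNN3 replicate 3 (adjusted p = 0.0264).

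Gbp2b, a close relative of Gbp2 that is not one of the 9 genes and sits between Gbp3 and Gbp2, had 1.69, 8.97 and 3.14 FPKM in siNC and 73.8, 68.0 and 47.0 FPKM in siCNN3. Its profile over the libraries was like that of Gbp2, and 2.07% of 50-base windows of the Gbp2 transcript were also found in Gbp2b. The log2 fold change was 3.71 ± 0.46 (SE) with an adjusted p of 0.0153 in limma. Leaving out siNC replicate 3 (0.0882) or either of siCNN3 replicates 1 (0.072) and 2 (0.0764) ended the call.

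Promoters of the chromosome 3 members are shown because the family is known as a target of the factors that bind ISRE and GAS motifs. RefSeq promoter windows on GRCm38.p6, from 250 bases before to 50 bases after the annotated start, were found for 4 of the 9 members (Gbp2, Gbp3, Gbp5 and Gbp7), with a pair of starts for Gbp3. Capitals mark matches to GAAANNGAAA, searched on both strands and therefore also as TTTCNNTTTC (ISRE), and to TTCNNNGAA, which reads the same on both strands (GAS). All 4 genes are on the plus strand, and all ISRE matches were on the minus strand. The windows are chr3:142620413-142620712 for Gbp2, chr3:142496684-142496983 for Gbp5, chr3:142530086-142530385 for Gbp7, and chr3:142559794-142560093 and chr3:142560106-142560405 for the upstream and downstream starts of Gbp3.
Gbp2 promoter: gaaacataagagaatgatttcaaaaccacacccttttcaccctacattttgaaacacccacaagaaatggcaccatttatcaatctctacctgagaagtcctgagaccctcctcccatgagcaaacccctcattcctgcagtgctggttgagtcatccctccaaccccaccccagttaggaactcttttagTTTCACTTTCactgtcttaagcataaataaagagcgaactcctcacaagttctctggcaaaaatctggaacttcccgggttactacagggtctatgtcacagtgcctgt
Gbp5 promoter: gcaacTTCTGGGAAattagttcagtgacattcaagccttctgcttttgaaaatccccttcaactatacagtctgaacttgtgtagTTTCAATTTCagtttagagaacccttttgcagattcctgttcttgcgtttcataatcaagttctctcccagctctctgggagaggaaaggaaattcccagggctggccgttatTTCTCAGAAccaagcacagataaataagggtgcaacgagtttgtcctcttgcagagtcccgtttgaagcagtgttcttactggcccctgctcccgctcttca
Gbp7 promoter: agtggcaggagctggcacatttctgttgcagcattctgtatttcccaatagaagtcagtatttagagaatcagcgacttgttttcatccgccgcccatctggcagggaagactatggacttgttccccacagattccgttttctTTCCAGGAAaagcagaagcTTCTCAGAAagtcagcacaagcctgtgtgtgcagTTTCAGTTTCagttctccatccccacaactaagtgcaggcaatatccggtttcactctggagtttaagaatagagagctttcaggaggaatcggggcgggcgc
Gbp3 upstream promoter: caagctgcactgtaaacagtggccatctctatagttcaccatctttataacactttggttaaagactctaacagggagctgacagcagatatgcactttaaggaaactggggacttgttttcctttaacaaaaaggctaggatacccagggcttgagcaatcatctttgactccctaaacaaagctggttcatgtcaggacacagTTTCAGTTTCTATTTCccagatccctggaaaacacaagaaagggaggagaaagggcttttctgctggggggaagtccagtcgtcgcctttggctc
Gbp3 downstream promoter: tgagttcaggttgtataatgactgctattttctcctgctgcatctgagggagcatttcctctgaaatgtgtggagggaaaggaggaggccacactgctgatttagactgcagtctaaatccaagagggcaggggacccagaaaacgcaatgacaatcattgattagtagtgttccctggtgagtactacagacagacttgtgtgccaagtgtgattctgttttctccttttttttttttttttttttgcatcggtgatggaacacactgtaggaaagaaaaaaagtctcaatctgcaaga

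An ISRE match was present in the windows of Gbp2, Gbp5 and Gbp7 and in that of the upstream start of Gbp3, so 4 of these 5 windows held one. Of 32851 RefSeq promoter windows of the same length, 1131 (3.44%) did. The first base of the match lay 59 bases before the start in Gbp2, 53 in Gbp7 and 165 in Gbp5. The upstream window of Gbp3 held 2 overlapping matches, which began 45 and 39 bases before the start. The Gbp2b window held 1 at 137 bases. GAS matches were found in Gbp5, at 245 and 52 bases, and in Gbp7, at 106 and 87 bases, with 8.3% of all windows holding at least 1, and none overlapped an ISRE match. A match is a description of the letters and does not show that a factor was bound.

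The listed transcripts of Gbp3 had unequal values. Gbp3-203 starts at position 142560052, 8 bases after the upstream RefSeq start, and Gbp3-202 starts 359 bases further on, 55 bases after the downstream RefSeq start, whose window held neither motif. Gbp3-203 was estimated at 0, 10.4 and 4.02 FPKM in siNC, against 177.6, 146.8 and 40.5 FPKM in siCNN3. Gbp3-202 was estimated at 1.47, 12.4 and 1.70 FPKM in siNC, against 12.8, 13.9 and 11.7 FPKM in siCNN3. Thus the siCNN3 libraries were apart from siNC for Gbp3-203, whereas for Gbp3-202 siNC replicate 2 lay within the siCNN3 range, above siCNN3 replicate 3. The log2 fold changes were 4.74 ± 0.99 and 1.62 ± 0.65 (SE), and neither passed the threshold when each transcript was tested on its own (adjusted p = 0.15 and 0.46 in limma). The short Gbp3-207, of 649 bases, had 0, 1.67 and 0 FPKM in siNC and 2.58 to 3.78 FPKM in siCNN3. The downstream-start transcript held 100%, 50.6% and 29.7% of the FPKM of Gbp3 in the siNC libraries and 6.59%, 8.45% and 21.4% in the siCNN3 libraries. These shares did not overlap, and the exact two-sided permutation p of 0.1 was the smallest that 3 libraries against 3 can give. Gbp3-203 is among the transcripts whose estimate may have failed in a library, since it was at 0 in siNC replicate 1 and above 10 FPKM in replicate 2. When all such transcripts were removed, the log2 fold change of Gbp3 was 1.88 with an adjusted p of 0.233.

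**Figure D2:**
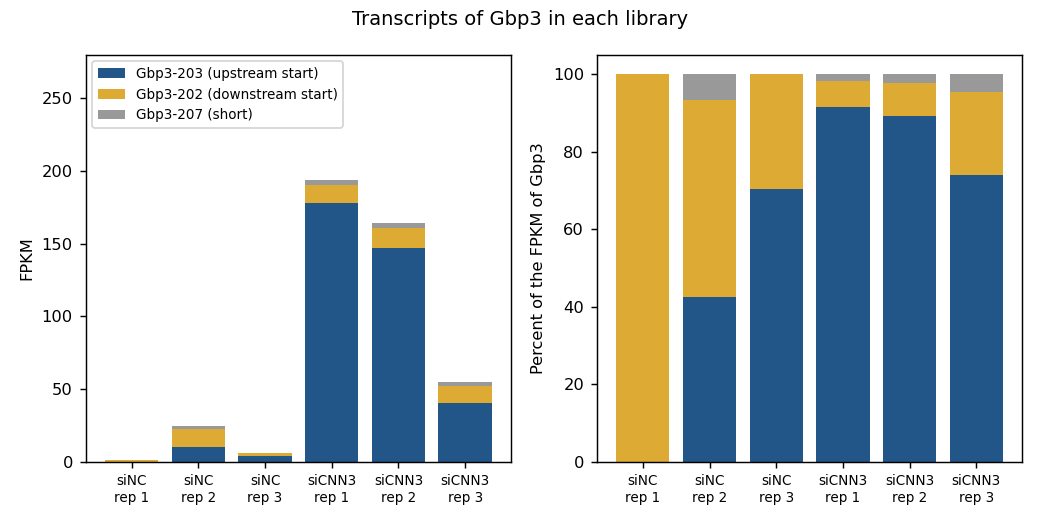
FPKM of the 3 listed Gbp3 transcripts in each library (left) and the percent of the FPKM of Gbp3 each held (right), as stacked bars. The upstream-start transcript makes up most of Gbp3 in the siCNN3 libraries, and the downstream-start share is 29.7% to 100% in siNC and 6.59% to 21.4% in siCNN3.

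Other members had fewer transcripts to compare. The longer Gbp7 transcript, Gbp7-201, was estimated at 0.354, 5.96 and 1.40 FPKM in siNC, against 53.9, 53.0 and 16.1 FPKM in siCNN3, and it carried most of the level of the gene in siCNN3. The shorter Gbp7-202 had 0.229, 0.873 and 1.28 FPKM in siNC and 4.56, 4.72 and 1.30 FPKM in siCNN3, with siCNN3 replicate 3 next to the highest control. Of the 9 member transcripts tested one by one, only that of Gbp2 was called higher, where 0.462% of 21658 transcripts were. Of 50-base windows of Gbp7-201, 10.6% were also found in the annotated gene Gm43802 and 2.26% in Gbp3, and 4.88% of those of Gbp3-203 were found in Gbp7, so reads of those stretches could have been split.

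The chromosome 5 members were lower. Gbp10, at chr5:105215699-105239533 on the minus strand, was listed at 0, 0.513 and 0.14 FPKM in siNC, against 14.2, 13.0 and 2.75 FPKM in siCNN3. The groups did not overlap, with siCNN3 replicate 3 again the lowest of its group. The log2 fold change was 2.95 ± 0.53 (SE) with an adjusted p of 0.0492 in limma, just under the threshold. Of the leave-one-out fits it was called only without siCNN3 replicate 3 (log2 fold change 3.60, adjusted p = 0.00135), and without any other library its adjusted p was 0.0932 to 0.186. A pseudocount of 0.1 gave a log2 fold change of 5.05 (0.0409). The call was also lost without a filter on low values (0.051), in limma without a trend (0.054) and without the transcripts with failed estimates (0.0513).

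Gbp10 cannot be read apart from its neighbours. The annotation places another gene, Gm43302, over the same stretch, at chr5:105214907-105293695, and 9 of the 11 exons of its transcript are identical to exons of Gbp6-201, while its last exon overlaps that of Gbp10. In the Gbp10 transcript, 82.5% of 50-base windows were found in another gene, and in the Gm43302 transcript all were, mostly in Gbp6. Gm43302, chosen after its values were seen, was listed at 0, 0.981 and 0.157 FPKM in siNC, against 28.2, 24.2 and 5.88 FPKM in siCNN3. It rose by 3.70 ± 0.57 (SE) on the log2 scale (adjusted p = 0.0305 in limma), and like Gbp10 it passed the filter only through siCNN3, which fixed its direction. Of the leave-one-out fits, those that dropped siNC replicate 2 (0.0467) or siCNN3 replicate 3 (0.00229) kept the call, and in the others the adjusted p was as high as 0.141. A pseudocount of 0.1 gave 5.72 (0.0403). Since Gbp6 itself was not listed, reads of Gbp6, Gbp10 and Gm43302 cannot be told apart here. The sum of Gbp10 and Gm43302 was 0, 1.49 and 0.297 FPKM in siNC and 42.3, 37.2 and 8.63 FPKM in siCNN3 (log2 fold change 4.09 ± 0.62 SE, adjusted p = 0.0302 in limma), a comparison added after the data were seen.

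Gbp4, at chr5:105115767-105139586, was barely present. It was listed at 0, 0.0188 and 0.0253 FPKM in siNC, against 0.308, 3.07 and 0.413 FPKM in siCNN3. In contrast to the other members the highest library was siCNN3 replicate 2 alone, and the log2 fold change of 0.95 ± 0.43 (SE) was not significant (adjusted p = 0.336 in limma). A pseudocount of 0.1 in place of 1 gave 2.93, still not significant (adjusted p = 0.175). The fold change of such a low gene is thus set in large part by the value added before taking logs. Gbp11, which the annotation calls a polymorphic pseudogene and which is not among the 9 genes, was listed at 0 in every siNC library and at 2.30, 2.44 and 0 FPKM in siCNN3.

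The order of levels was much the same in every siCNN3 library. Since FPKM is per length, levels of different genes can be compared. Gbp2 and Gbp3 led, followed by Gbp7, Gbp5, Gbp10 and Gbp4, in each of the 3 libraries. Over the group the levels were 54.8 to 194 FPKM for Gbp3, 81.2 to 122.8 FPKM for Gbp2, 17.4 to 58.5 FPKM for Gbp7, 8.01 to 20.7 FPKM for Gbp5, 2.75 to 14.2 FPKM for Gbp10 and 0.308 to 3.07 FPKM for Gbp4. The ranges of neighbours in this order overlapped, except that Gbp2 lay above Gbp7. The place of Gbp10 rests on how reads were divided between it and Gm43302, since their sum exceeded Gbp5 in each of the 3 libraries. Gbp2 and Gbp3 exchanged the first place. Gbp3 was ahead in siCNN3 replicates 1 and 2 and in siNC replicate 2, where it held 47.3%, 44.2% and 50.9% of the family total. Gbp2 was ahead in siCNN3 replicate 3 and in siNC replicates 1 and 3, where it held 49.4%, 68.1% and 43.6%.

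Members also differed in how far siCNN3 replicate 3 fell behind. Its level was 67.7% of the mean of siCNN3 replicates 1 and 2 for Gbp2, 43.2% for Gbp5, 30.6% for Gbp3, 30.0% for Gbp7, 24.5% for Gbp4 and 20.2% for Gbp10. Cnn3 in that library, at 25.6 FPKM, lay between the other siCNN3 libraries. Interferon-beta (Ifnb1) was at 14.0% there, the transcription factor gene Irf7 at 60.7%, and the immunity-related GTPases Iigp1, Tgtp2 and Tgtp1 at 15.8%, 14.4% and 11.1%. Irf1, a transcription factor of the family's promoters chosen after its values were seen, went the other way, at 156.4%. In siNC the outlying library was replicate 2, at 2.58 times the mean of the other controls for Gbp2, 4.19 times for Gbp7, 6.78 times for Gbp3 and 7.33 times for Gbp10. Ifnb1 was above 0 among the siNC libraries only in that replicate, at 0.225 FPKM. The part of these libraries in the results was not tested beyond leaving each out.

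**Figure D3:**
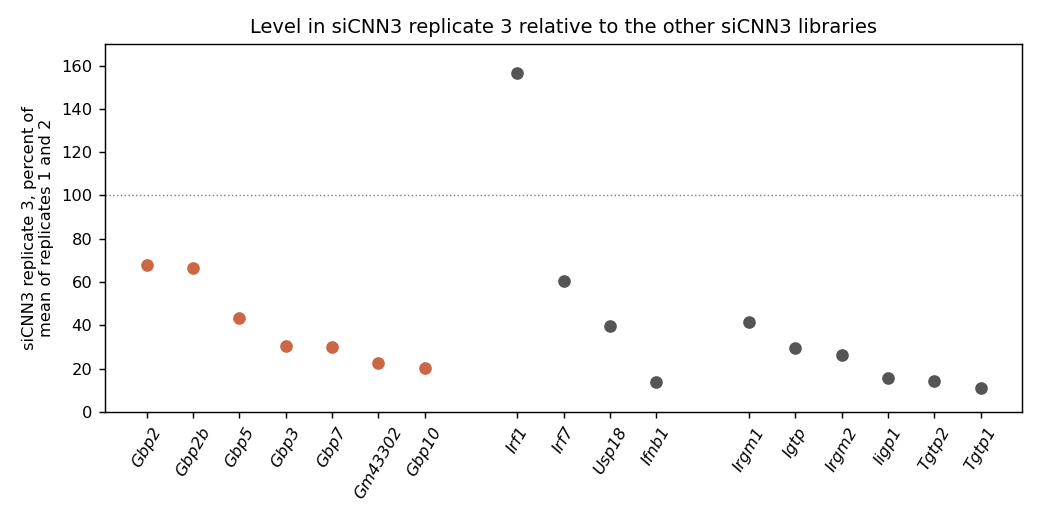
Level in siCNN3 replicate 3 as a percent of the mean of siCNN3 replicates 1 and 2 (vertical axis), for Gbp genes (red) and for signaling genes and immunity-related GTPases (grey), where the dotted line marks 100%. Gbp2 stands at 67.7% and Gbp10 at 20.2%, while Irf1 stands above the line at 156.4%; Irgm1, Igtp and Irgm2 were added after their values were seen.

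Genes beside the clusters had log2 fold changes near 0. The chromosome 3 cluster spans 144.0 kb and holds 5 Gbp genes, all listed, and the chromosome 5 cluster spans 332.3 kb and holds 6, of which 4 were listed. Of 11 protein-coding genes within 500 kb of a cluster, 10 were tested and 0 were called in limma, with 0 at an unadjusted p below 0.05 as well. Their log2 fold changes ran from -0.31 for Lrrc8b to 0.16 for Pkn2, with a median of -0.03, and the groups overlapped for 8 of them. Of all 11593 genes tested, 1595 had siCNN3 all above siNC and 1084 had it all below. In the same stretch of chromosome 3, the 4 members measured 3.37 to 4.02 and Gbp2b 3.71. On chromosome 5, Gbp10 measured 2.95 and Gbp4, which was not called, 0.95, and both passed the filter only through siCNN3. Lrrc8b and Pkn2 were chosen after their values were seen.

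**Figure D4:**
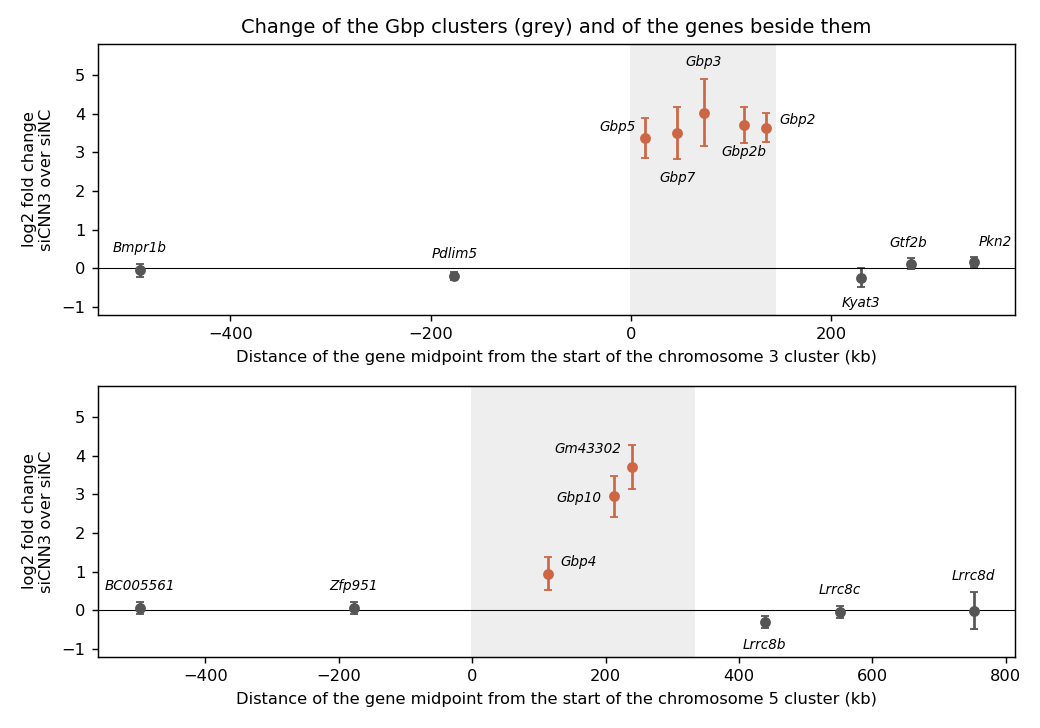
Log2 fold change with its SE (vertical axis) for Gbp genes in red and neighbouring protein-coding genes in grey, by distance of the gene's midpoint from the start of the cluster in kb; the shaded band is the cluster. Red points on chromosome 3 lie between 3.37 and 4.02, and grey points lie between -0.31 and 0.16; Gbp11, at 0 in all siNC libraries, is not drawn.

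Genes of the pathway around the family were compared in the same fit. Together the lists hold 74 genes, of which 66 were tested, 9 were called higher and 0 lower. Of all genes tested, 1.73% were called higher and 0.336% lower. Immunity-related GTPases were 5 of the 9. Among ligands, Ifnb1, the type I interferon made by many cell types, had 0, 0.225 and 0 FPKM in siNC and 6.60, 7.79 and 1.01 FPKM in siCNN3. Its log2 fold change of 2.26 ± 0.54 (SE) did not pass the threshold (adjusted p = 0.0976 in limma), except without siCNN3 replicate 3 (0.00139). It passed the filter only through siCNN3, so its direction was fixed by the filter, and a pseudocount of 0.1 gave a log2 fold change of 4.71. Ifng, the type II interferon best known for inducing the family, and Tnf were listed below the filter, at no more than 0.867 and 0.743 FPKM in any library, and Il1b was not listed.

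Among 13 tested receptors, JAK kinases, STAT and IRF factors, Irf7 was called higher. This gene, whose product amplifies interferon production, had 0.796, 11.8 and 5.33 FPKM in siNC and 130.8, 121.5 and 76.6 FPKM in siCNN3 (log2 fold change 4.36 ± 0.67 SE, adjusted p = 0.0305 in limma). Its highest control was siNC replicate 2, as for the tested members other than Gbp4. The call of Irf7 was lost without siNC replicate 3 (0.126), siCNN3 replicate 1 (0.115) or replicate 2 (0.121), and with a pseudocount of 0.1 (0.0506). The median log2 fold change of the list was 0.15, and the groups overlapped for 8 of the 13. In the other 5 the siCNN3 libraries were all above, as in 13.8% of all genes tested. Of the 6 tested feedback inhibitors 0 were called. The median log2 fold change of that list was 0.06, and the groups overlapped for all of its genes but Usp18. Usp18, a deconjugase that blocks the type I interferon receptor, measured 0.412, 17.3 and 2.91 FPKM in siNC and 170.1, 167.2 and 66.8 FPKM in siCNN3 (log2 fold change 4.74, adjusted p = 0.0525 in limma), and it passed without siNC replicate 2 (0.0148) or siCNN3 replicate 3 (0.0468), or with the filter at 5 FPKM (0.0471).

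The immunity-related GTPases, a sister family that acts on the same vacuoles, had the median nearest to that of the members. Of 9 tested, 5 were called higher, beside 1.73% of all genes tested, and the median log2 fold change was 3.63. Iigp1 measured 0.117, 2.25 and 0.313 FPKM in siNC and 167.7, 154.9 and 25.4 FPKM in siCNN3 (5.72, adjusted p = 0.0199 in limma). Tgtp1 and Tgtp2, near-identical copies whose reads may have been split, had log2 fold changes of 5.28 and 5.21 (adjusted p = 0.0348 and 0.0332 in limma), and the other called genes, named after their values were seen, were 9930111J21Rik1 and 9930111J21Rik2, at 1.69 and 1.70 (0.0332 and 0.0285). In the wider dynamin superfamily 1 of 11 was called, the antiviral GTPase Mx1, with 0.702, 1.04 and 0.0282 FPKM in siNC and 36.2, 46.5 and 6.43 FPKM in siCNN3 (3.95, adjusted p = 0.0442 in limma), while the median of that list was -0.03. Dropping siNC replicate 1 or 3 or siCNN3 replicate 1 or 2 ended the calls of Iigp1 (adjusted p up to 0.104 in limma), Tgtp1 (0.158), Tgtp2 (0.151), Mx1 (0.176), 9930111J21Rik1 (0.139) and 9930111J21Rik2 (0.117). Dropping siNC replicate 2 ended those of Tgtp1 (0.0568), Mx1 (0.0879), 9930111J21Rik1 (0.0879) and 9930111J21Rik2 (0.0702). The call of Mx1 was also lost with a pseudocount of 0.1 (0.0533) and in limma without a trend (0.0505).

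Genes of the machinery that acts with guanylate-binding proteins were compared in the same way, beside the 1.73% of all genes called higher. The 6 prenylation enzymes attach the lipid anchor of proteins such as Gbp2 and Gbp5 or process the protein afterwards. Of these, 0 were called and the median was 0.06, with Zmpste24 at -0.13 (adjusted p = 0.793 in limma). Of 10 ATG conjugation and ATG8 genes, which load the GTPases on vacuoles, 0 were called and the median was 0.08, with Gabarap at -0.35 (adjusted p = 0.332 in limma). Of 4 ubiquitin ligases and adaptors, 1 was called, Sqstm1, the p62 autophagy receptor, with 198.1, 243.4 and 204.4 FPKM in siNC and 412.7, 350.2 and 338.6 FPKM in siCNN3 (0.77 ± 0.13 SE, adjusted p = 0.0361 in limma). Of 6 tested inflammasome and pyroptosis genes 0 were called, and their median was 0.64. In 5 of the 6 the siCNN3 libraries were all above the siNC libraries, as in 13.8% of all genes tested. Casp4, the cytosolic sensor of lipopolysaccharide, measured 41.1, 38.9 and 40.8 FPKM in siNC and 70.0, 69.8 and 55.8 FPKM in siCNN3 (0.67 ± 0.13 SE, adjusted p = 0.0519 in limma). Without siCNN3 replicate 3, Casp4 (0.0135) and Gabarap (0.0384) passed the threshold, as Casp4 did with the filter at 5 FPKM (0.0471). Without any one of siNC replicates 1 and 3 and siCNN3 replicates 1 and 2, Sqstm1 (0.0998 to 0.169) was no longer called, nor was it in limma without a trend (0.064).

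**Figure D5:**
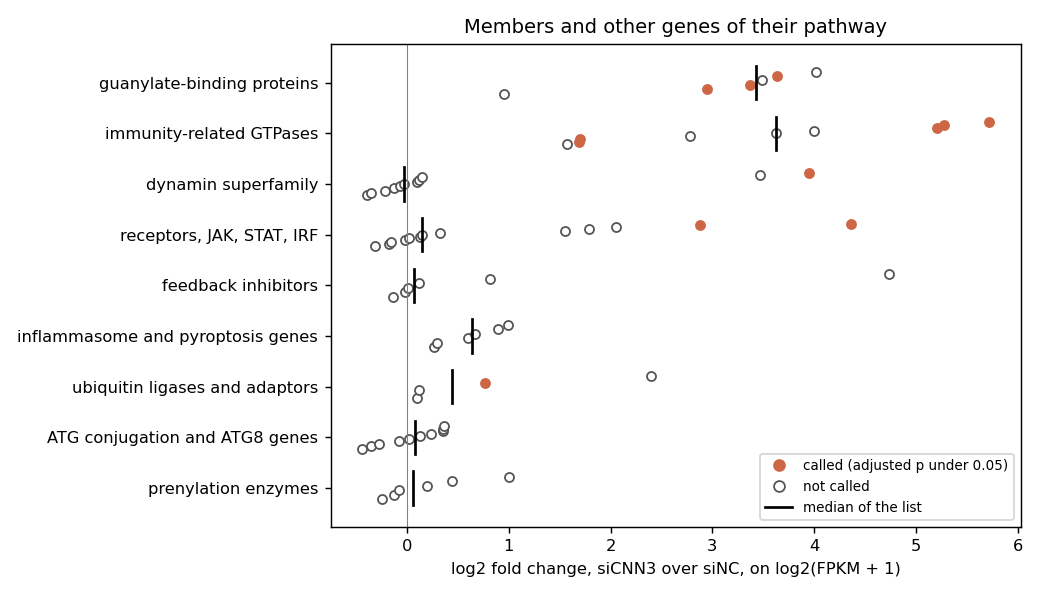
Log2 fold change of siCNN3 over siNC on the log2(FPKM + 1) scale (horizontal axis) for each tested gene of each list, with filled red circles for genes at an adjusted p below 0.05 and a bar at the median of the list. The Gbp and immunity-related GTPase lists have medians of 3.43 and 3.63, and the medians of the other lists shown lie between -0.03 and 0.64.

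Each tested member followed the others closely over the 6 libraries, except Gbp4. The Pearson correlation with the mean of the other members, on log2(FPKM + 1), was 0.97 for Gbp2, 0.96 for Gbp3, 0.97 for Gbp5, 0.98 for Gbp7, 0.96 for Gbp10 and 0.69 for Gbp4. These values describe 6 libraries in 2 groups, which share the difference between the groups. Outside the family, the profiles most like the mean of the members were those of Haus3 (0.9975), Cops6 (0.9972), Trim34a (0.9965), Cox18 (0.9962) and Tent5a (0.9959). Trim34a, an interferon-induced TRIM protein gene, and Cox18, a mitochondrial insertase gene, were called higher, with log2 fold changes of 2.27 and 1.15 (adjusted p = 0.0322 and 0.043 in limma). Both calls were lost without siNC replicate 1 or 3 or siCNN3 replicate 1 or 2 (adjusted p up to 0.146 and 0.179), and that of Cox18 without siNC replicate 2 (0.0677). Haus3, Cops6 and Tent5a had log2 fold changes of 0.64, 0.20 and 0.75 and were not called, although Haus3 (0.0458) and Tent5a (0.0486) were without siCNN3 replicate 3 and Tent5a with quantile normalization (0.048), so likeness in profile came with changes of very unequal size. Of 11587 genes compared, 349 (3.01%) had a correlation of at least 0.95.

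Markers of other cell types that express the family were looked for. Of 10 macrophage markers only Cd14, Cd68 and Lyz2 were listed, 0 were called, and their sum was 20.1 to 27.1 FPKM in siNC and 16.3 to 19.2 FPKM in siCNN3. Whether RNA of other cell types has a part in the Gbp values was not tested. Cd14 measured 14.2 to 21.9 FPKM in siNC and 12.3 to 15.7 FPKM in siCNN3, and Cd68 measured 3.60 to 5.39 and 1.96 to 3.56 FPKM. The defining markers Ptprc, Adgre1 and Csf1r had no listed transcript, nor did any of 5 T and NK cell markers. Of 5 endothelial markers only Tek was listed, at 0.681 to 1.37 FPKM in siNC and 0.733 to 1.24 FPKM in siCNN3.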

How the data were processed

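RNA from 3 siNC and 3 siCNN3 samples of C2C12 cells was sequenced by the study's authors, who deposited FPKM per Ensembl transcript for 24023 transcripts. The submitters' processing notes name Bowtie 0.12.2 and the builds mm8 and mm10 with no role, and the program that estimated FPKM and the annotation are not given in the sources used here. Whether strand was used is not stated.

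Transcripts were matched to GENCODE vM21 on GRCm38 without version (23949 matched, and the other 74 held 0.159% to 0.22% of FPKM) and summed by symbol to 11835 genes. A value of 0 may be a failed estimate. For 235 transcripts a library was at 0 where another of the same group reached 10 FPKM, and Gapdh-201 was at 0 in 5 libraries.

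Genes whose mean over the 6 libraries reached 0.5 FPKM were fitted as log2(FPKM + 1) in limma 3.58.1 (R 4.3.3, moderated test with trend, two-sided), with Benjamini-Hochberg adjustment over all 11593 genes and a threshold of 0.05. Fold changes on this scale understate those of low genes. Depth is unknown, and 0.1 is the smallest p that exact permutation of 3 against 3 libraries allows.

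The members, pathway lists and markers were chosen with earlier results of these data known. Named are the members, Gbp2b and Gbp11, Cnn3, up to 3 called genes per list (or, with none, its most abundant), the 2 most abundant markers of a list, and the 5 closest profiles. Other genes described as results are marked as picked with their values in view, and 1 gene that the rule names is not reported here. Alternatives were a pseudocount of 0.1, no filter or one at 5 FPKM, median-of-ratios and quantile scaling, the replicate number as a block, no trend, removal of failed transcripts, single transcripts and each library left out. Promoter sequences were taken from RefSeq, and no protein sequences were used here.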

Additional observations from a re-analysis of the deposited data

How the results depend on the processing

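The 3 members called higher became 0 to 4 when 1 library was left out and 1 when each transcript was tested on its own. Over all genes, the 200 called higher became 16 to 443 and the 39 called lower became 4 to 159 when 1 library was left out, and the 9 pathway genes became 0 to 19. The lowest member counts came without siNC replicate 3 or siCNN3 replicate 2, and the highest count over all genes came without siCNN3 replicate 3. Median-of-ratios scaling gave 63 genes called lower. Quantile normalization gave 199 called higher and 93 lower. With the replicate number as a block, 62 genes were called higher, 6 lower and 3 pathway genes, and of the genes named the calls of Gbp10 (adjusted p = 0.0713 in limma), Irf7 (0.0565), Tgtp1 (0.0522), 9930111J21Rik1 (0.108), 9930111J21Rik2 (0.0905), Sqstm1 (0.124), Trim34a (0.0557) and Cox18 (0.092) were lost. Deviations of same-numbered siNC and siCNN3 libraries had correlations of -0.278, 0.314 and -0.0247, and those of differently numbered libraries ran from -0.445 to 0.442. These values cannot show whether the numbers pair the libraries, which the labels do not say. Of 460 values of 31 single genes under alternatives, 459 kept their direction. Much of this was fixed in advance, since the filter, block and trend settings leave a gene's fold change as it was. Groups that do not overlap also keep their direction whichever library is left out. Zmpste24, not called in any alternative, went from -0.13 to between -0.28 and 0.02 with 1 library left out, positive only without siCNN3 replicate 3. Of the 460 values, calls were lost in 85 and gained in 14, most of them with 1 library left out. The cause of these changes was not tested. With 3 libraries per group and unknown depth, low members such as Gbp4 and Gbp10 rest on FPKM whose counting error cannot be given.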
